A study of Homo sapiens with 9 samples.

Results

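The subject is the response of U2OS cells to depletion of NFKB2, read from 3 libraries transfected with an siRNA that targets NFKB2 (siNFKB2) and 3 transfected with a non-silencing siRNA (siNS), 6 of the 9 libraries of the series. All 14815 genes that passed a low-count filter are covered, of 44608 entries in each table, with the weight on functions other than homologous recombination and the cell cycle. U2OS is an established human osteosarcoma line, and both groups received siRNA at 75 nM with a lipid reagent and were collected 48 h later. The remaining 3 libraries, treated alike with an siRNA that targets RELB (siRELB), are used here for a direct test of the difference between the knockdowns. They also entered the main fit, and so the spread behind the p-values of siNFKB2 against siNS. No untransfected library was used, so both groups compared carry an siRNA, and the labels do not give the siRNA sequences or how many siRNAs were combined. The replicates are numbered, but the labels do not say whether each was its own culture. The p-values therefore rest on variation among libraries, some of which may be technical.

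NFKB2 encodes p100, a precursor with a double role: its C-terminal repeats hold other NF-kB subunits in the cytoplasm like an IkB inhibitor, and processing of p100 to p52 yields a DNA-binding subunit that partners with RELB. In the non-canonical pathway, receptors such as LTBR and CD40 relieve the kinase NIK (MAP3K14) from degradation by a complex of TRAF2, TRAF3 and the BIRC2 and BIRC3 ubiquitin ligases, and NIK then drives p100 processing. An siRNA acts through a guide strand that slices a fully matched transcript, and the guide's seed, the bases 2 to 8 from its 5′ end, can also lower other transcripts that hold a short match, mostly in the 3′ UTR, as a microRNA does.

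Total counts ranged from 15011789 to 19279572 over the 9 libraries, and mitochondrial rRNA took 0.379% to 2.68% of counts, with siNFKB2 replicate 3 the highest. Levels are given as CPM (counts scaled to a common library size), for replicates 1 to 3 in order, and compare a gene with itself, since counts are not corrected for gene length. Fold changes are log2(siNFKB2/siNS) ± SE from edgeR's quasi-likelihood test, and adjusted p values are Benjamini-Hochberg values over all genes tested, with n = 3 libraries per group. A gene that rose, fell or was called had an adjusted p below 0.05. NFKB2 itself (chromosome 10, 102394110 to 102402529, plus strand, GRCh38) stood at 80.7, 126 and 117 CPM in siNS and at 5.26, 22.9 and 48.4 CPM in siNFKB2, which left 4.86%, 21.1% and 44.8% of the siNS mean. All 3 siNFKB2 libraries lay below all 3 siNS libraries, with unequal depletion (log2 -2.09 ± 0.56, adjusted p = 0.021 by edgeR). The fold change missed the threshold without siNFKB2 replicate 2 (adjusted p = 0.0936), siNS replicate 3 (0.0667) or siNS replicate 2 (0.0532), and when only the 6 libraries compared were fitted (0.0502).

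Against siNS, 3869 genes were called, 26.1% of those tested: 1872 were higher in siNFKB2 (12.6%) and 1997 lower (13.5%). A log2 fold change of at least 1 in size was reached by 619 of the higher genes (4.18%) and 760 of the lower (5.13%), and a log2 of at least 2 by 124 (0.837%) and 99 (0.668%). Bulk counts cannot tell fewer cells of a kind from less RNA per cell. Every count of list members below in siNFKB2 against siNS is to be read against those shares. In siRELB against siNS the shares over all genes were 1.21% higher and 0.81% lower. Between the knockdowns 12.2% of all genes were higher in siNFKB2 and 14.3% lower. The median log2 fold change over all genes was -0.00374. The count depended on single libraries: it was 2220 without siNFKB2 replicate 2, 2352 without siNS replicate 3, and 4895 without siNS replicate 1. When only the 6 libraries compared were fitted, without siRELB, it was 2670. Among genes called lower, siNFKB2 replicate 1 was the library nearest the siNS mean for 1371 of 1997 (68.7%), and among genes called higher for 1024 of 1872 (54.7%). Replicate 1 is also the library with the least NFKB2 left. Deviations of siNFKB2 and siNS replicates 1 from their group means correlated at 0.585 across genes, which are not independent, and a relation to depletion was not tested.

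The 15 largest rises (of genes whose mean reached 5 CPM) included cytokines, enzymes, receptors and a pseudogene. BCL2A1, an anti-apoptotic BCL2 relative (chromosome 15, 79960889 to 79971446, minus strand), was at 1.26, 0.938 and 1.81 CPM in siNS and 12.6, 62.3 and 63 CPM in siNFKB2 (log2 5.09 ± 0.63, adjusted p = 0.000504). The lowest siNFKB2 library was thus well above the highest siNS library, and replicates 2 and 3 stood far above replicate 1. IL24, a cytokine of the IL10 family (chromosome 1, 206897443 to 206904139, plus strand), rose from 3.26, 2.38 and 2.31 CPM to 50.6, 56.5 and 48 CPM, with the 3 siNFKB2 libraries close together (log2 4.28 ± 0.17, adjusted p = 2.31e-06). PRR9, a proline-rich protein of the epidermal differentiation cluster, rose from 0.473, 0.5 and 0.494 to 9.93, 21.1 and 17.5 CPM, and IL1RL1, the receptor of IL33, from 1.47, 0.438 and 1.1 to 9.23, 30.2 and 26.9 CPM. AMPD3, an AMP deaminase, SNCB, a synuclein, and CHRNA9, an acetylcholine receptor subunit, rose by log2 3.51, 3.21 and 3.03. G0S2, an inhibitor of the lipase ATGL, rose by 3.27, the pseudogene CES1P2 by 3.09 and the uncharacterised locus LOC107986820 by 3.11. CCL20, CXCL8, TRAF1, CSF2 and BIRC3 complete the 15 and are given with their families. In siRELB, 4 of these 15 genes were also called against the same siNS libraries, and all 15 differed between the knockdowns. By sign alone, 13 of the 15 lay above 0 in siRELB and 2 below, with a median log2 of 0.986, beside -0.016 over all genes. The 15 were chosen for rises over the same siNS libraries, which by itself can place siRELB above 0.

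The 15 largest falls were of varied kinds, from matrix proteins and enzymes to a pseudogene. EFEMP1, an extracellular matrix protein of the fibulin family (chromosome 2, 55865967 to 55924139, minus strand), was at 135, 126 and 129 CPM in siNS and 22.9, 10.2 and 10.3 CPM in siNFKB2 (log2 -3.16 ± 0.28, adjusted p = 0.000248). HADHA, the alpha subunit of the mitochondrial trifunctional protein of fatty acid oxidation (chromosome 2, 26190635 to 26244726, minus strand), fell from 415, 386 and 384 to 114, 54 and 54.3 CPM (log2 -2.42 ± 0.26, adjusted p = 0.000342). Both genes were lowest in siNFKB2 replicates 2 and 3 and were tightly grouped in siNS. BLMH, the cysteine protease bleomycin hydrolase, fell from 178, 185 and 184 to 42, 28.1 and 37.5 CPM, with the smallest adjusted p of the 15 (5.31e-05). TXNIP, which restrains thioredoxin and glucose uptake, fell from 11.9, 10.6 and 10.1 to 1.5, 1.16 and 0.993 CPM. The aldehyde and aldose metabolising enzymes ALDH3B1 (log2 -2.56) and AKR1A1 (-2.37), the BMP-responsive inhibitor ID4 (-2.81) and the LIM protein CSRP2 (-2.32) fell as well. So did the NADPH oxidase NOX4 (-2.25), the selenoprotein SELENON (-2.20), LZTS1 (-2.17), ITGB3, ADAMTS15 and UBBP4, a ubiquitin pseudogene (-2.50) whose reads cannot be told apart with certainty from those of its near-identical relatives. Against siNS, 2 of the 15 were also called in siRELB, and again all 15 differed between the knockdowns. In siRELB 12 of the 15 falls lay below 0 and 3 above, with a median log2 of -0.306. Their choice by falls from the same siNS libraries can by itself place siRELB below 0. The heat map of the largest changes shows them library by library.

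**Figure D1:**
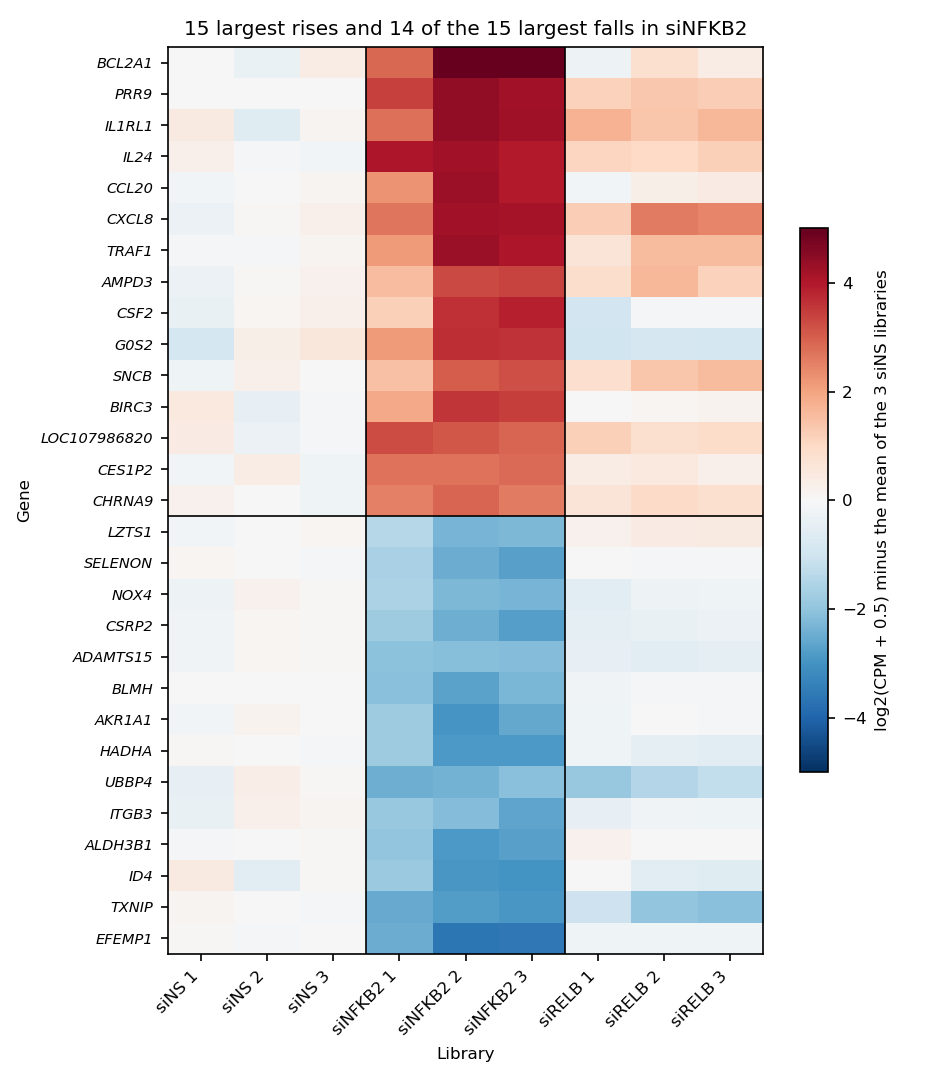
Colour gives log2(CPM + 0.5) minus the mean of the 3 siNS libraries for the 15 largest rises (upper block) and 14 of the 15 largest falls (lower block), with 1 column for each of the 9 libraries. The siNFKB2 columns stand apart from siNS in both blocks, and siNFKB2 replicate 1 is the palest of the 3 for 13 of the 15 rises and 13 of the 14 falls drawn.

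The 3′ UTRs of the genes that fell shared short sequences, shown because an siRNA seed acts through such matches. All 7-letter words found in at least 50 of 12460 3′ UTRs (1 transcript per gene, GENCODE 29) were ranked by the mean log2 fold change of genes that hold them against genes that do not, after a trend in UTR length and GC content was removed and with weight for the number of genes. The word CAGCCAA ranked highest for lower expression in siNFKB2, followed by the word AGCCAAA and then by GAGAGGC. They were chosen from the same fold changes, so what follows describes them and tests nothing. CAGCCAA stood in 1555 UTRs, with a median log2 of -0.138 against -0.00169 in the UTRs without it, and 25.3% of its genes were called lower against 13.4%. The median for GAGAGGC, in 1582 UTRs, was -0.13 against -0.0015. AGCCAAA, in 1841 UTRs, overlaps CAGCCAA by 6 letters, and its genes had a median of -0.0813 against -0.00585.

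At least 1 of the 3 words was in 3604 of the UTRs (28.9%), and in 10 of the 14 searched among the 15 largest falls. The share grew with the size of the fall: it was 41.7% of the genes called lower, 51% of those with a log2 of -1 or less and 60% of those with a log2 of -2 or less. Of the genes called higher 23.5% held a word, and of those not called 27.3%. Sites are shown for genes of the largest falls and for SUCLG1 and HNRNPF, described later, in 30 bases of the transcript's 3′ UTR with the word in capitals, 5′ to 3′ on the gene's strand (GRCh38).
EFEMP1, chr2:55867021-55867050, minus strand: ggcatttaagtCAGCCAAagaatattgtta
HADHA, chr2:26191089-26191118, minus strand: taaagtgccttCAGCCAAgaccatctctcc
HADHA, chr2:26190978-26191007, minus strand: gcctagagtggCAGCCAAgagccatctgaa
HADHA, chr2:26190892-26190921, minus strand: agttctgcaccCAGCCAAacacataacaat
ALDH3B1, chr11:68028956-68028985, plus strand: ccccatccactCAGCCAAagcagaatgcag
ALDH3B1, chr11:68029095-68029124, plus strand: atttggacaatGAGAGGCtgctcctgcggc
SELENON, chr1:25816540-25816569, plus strand: gaagcacaaccCAGCCAAacaccacagcct
BLMH, chr17:30248928-30248957, minus strand: ccagggactgaAGCCAAAgttatgcaaggg
ITGB3, chr17:47311403-47311432, plus strand: gtctttaatctGAGAGGCcacagtgcaatt
SUCLG1, chr2:84423538-84423567, minus strand: tattacagagaCAGCCAAtaaatctactat
HNRNPF, chr10:43386576-43386605, minus strand: attttcacaggCAGCCAAcaagcaattaag
HADHA thus held CAGCCAA at 3 places in a UTR of 615 bases, and ALDH3B1 held both CAGCCAA and GAGAGGC.

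The main transcript of NFKB2, 3101 bases long, held CAGCCAA once, in coding exon 6, and GAGAGGC once, across the junction of exons 4 and 5. They are shown because both words met in the targeted transcript, with the 30 bases around them.
NFKB2 at transcript position 513: ctacgagggacCAGCCAAgatcgaggtgga
NFKB2 at transcript position 394: cagcctaagcaGAGAGGCttccgatttcga
Such a pair is not rare: 32.1% of the 12460 transcripts searched held CAGCCAA somewhere, 31.7% held GAGAGGC, and 12.6% held both. No human mature microRNA of 2545 in the RefSeq table (GRCh38.p14) had bases 2 to 8 that pair with any of the 3 words. In siRELB the median log2 against siNS of genes with a word was 0.0351, and it was -0.0307 without a word. No trend in UTR length or GC content was removed from these medians. Different words ranked first for lower expression in siRELB, ACAAGAA and CAAGAAA, after the trend in UTR length and GC content was removed. Without that step their genes were not lower: medians in siRELB were -0.0115 and 0.00643, against -0.0129 and -0.0159 without each word. Medians without that step can therefore miss a fall. For the 3 siNFKB2 words in siRELB they do not decide whether the genes were lower. The main RELB transcript held both and none of the 3 siNFKB2 words. How many other transcripts hold the siRELB words was not counted. Another word, ATTACAA, ranked first for higher expression in both knockdowns, with medians of 0.138 in siNFKB2 and 0.14 in siRELB for its 1587 genes, and both comparisons share the siNS libraries. By library, genes with a word had medians of -0.033, -0.139 and -0.153 in siNFKB2 replicates 1 to 3 against -0.0196, 0.0288 and 0.00169 without one. Whether an siRNA of the study has any of these words as its seed match was not tested, since its sequence was not used here, and beside many of the groups below the number of fallen members with a word is given. Those counts rest on the same choice of words and test nothing.

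**Figure D2:**
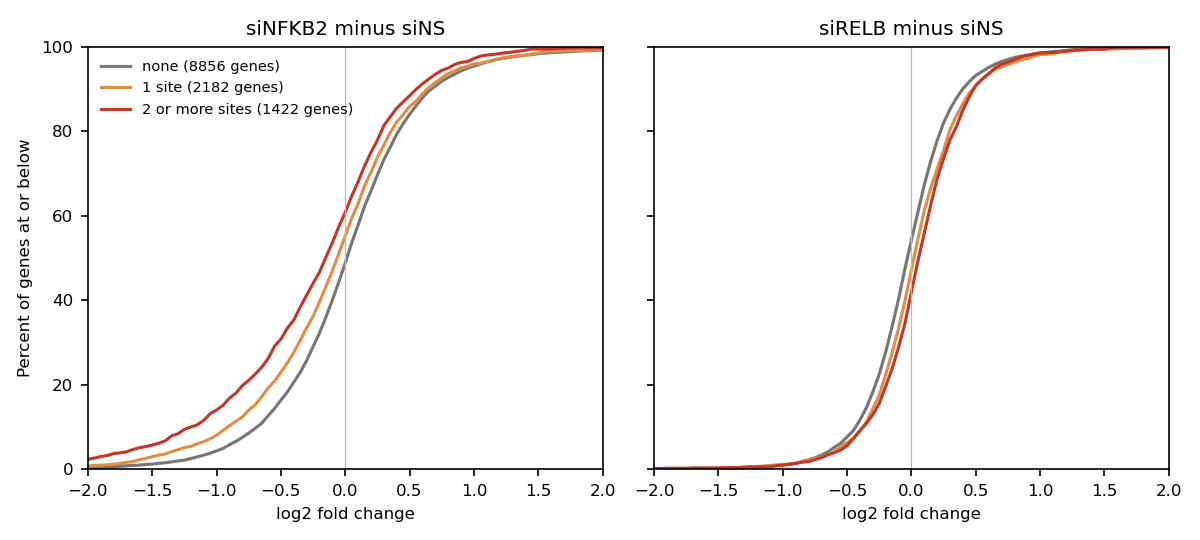
Each curve gives the percent of genes at or below a log2 fold change against siNS, in siNFKB2 (left) and siRELB (right), for genes with no match to the 3 words in the 3′ UTR, with 1 match, and with 2 or more (overlapping matches counted separately; the axis ends at -2 and 2). The left panel's curves separate on the negative side in the order none (8856 genes), 1 site (2182) and 2 or more sites (1422), and the right panel's lie the other way. No trend in UTR length or GC content was removed, so the right panel does not decide whether these genes were lower in siRELB.

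Within the NF-kB family and its inhibitors, 10 genes were tested, 2 rose and 1, NFKB2, fell. NFKBIE, which encodes the inhibitor IkB-epsilon, was at 36.8, 58.5 and 49.5 CPM in siNS and 85.3, 186 and 171 CPM in siNFKB2 (log2 1.61 ± 0.28, adjusted p = 0.00276). NFKB1, the precursor of p50, rose less, from 70.9, 58.8 and 67.2 to 79.2, 106 and 95 CPM (log2 0.51 ± 0.13), and its call was lost under 5 of 18 alternative settings. RELB was at 17.1, 30.3 and 34.1 CPM in siNS and 21.1, 42 and 42.9 CPM in siNFKB2, overlapping between the groups and not called (adjusted p = 0.447). RELA was at 135, 127 and 142 CPM in siNS and 142, 175 and 168 CPM in siNFKB2, and NFKBIA, the main IkB, at 50.8, 63 and 53.5 CPM in siNS and 53.5, 102 and 107 CPM in siNFKB2, with neither called (adjusted p = 0.105 and 0.0601; both named after their values were seen). The risers numbered 5 without siNFKB2 replicate 1, and 1 when siNS replicate 2 or 3 or siNFKB2 replicate 2 or 3 was left out.

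Receptors, adaptors and kinases of the non-canonical pathway rose more often than they fell, with 9 of 22 tested genes higher and 1 lower, and a median log2 of 0.31. TRAF1, an adaptor of TNF receptors, stood at 14.7, 14.8 and 17.1 CPM in siNS and at 68.8, 317 and 266 CPM in siNFKB2 (log2 3.80 ± 0.50, adjusted p = 0.000698). BIRC3, the ubiquitin ligase of the complex that degrades NIK, stood at 47.2, 25.3 and 32.1 CPM in siNS and 128, 405 and 372 CPM in siNFKB2 (log2 3.11 ± 0.39). Both had replicate 1 as the lowest siNFKB2 library, though above every siNS library. CYLD, a deubiquitinase that curbs NF-kB signalling, rose from 82.9, 56.5 and 64.1 to 179, 204 and 179 CPM. NIK itself (MAP3K14, log2 0.70), TRAF3 (0.62) and TRAF5 (0.93) rose by smaller amounts, and TRAF2 fell (-0.57). The call of TRAF2 was lost under 5 of 18 alternative settings. The other risers were TNFAIP3 (0.87), TNFRSF8 (1.63) and LTBR (0.57), named after their values were seen; the call of LTBR was lost under 9 of 18 alternative settings. In siRELB none of the 22 was called, where only 2.02% of all genes were, and 7 were higher and 1 lower in siNFKB2 than in siRELB.

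Secreted signals followed. Of 8 chemokines tested, 4 rose and 2 fell, and of 35 interleukins, colony stimulating factors and receptors 16 rose and 2 fell, with a median log2 of 0.83. CXCL8, the neutrophil chemokine IL8, was at 4.84, 6.19 and 7.19 CPM in siNS and 41, 118 and 117 CPM in siNFKB2 (log2 3.92 ± 0.48, adjusted p = 0.000475). CCL20, the ligand of CCR6, was at 1.79, 2.06 and 2.31 CPM in siNS and 11.6, 49.3 and 39.1 CPM in siNFKB2 (log2 4.02 ± 0.48), and CCL2, which draws monocytes, at 3.47, 7.44 and 4.77 CPM in siNS and 9.23, 16.2 and 15.7 CPM in siNFKB2. Each of these had its 3 siNFKB2 libraries above its 3 siNS libraries. CXCL3 was at 0.158, 0.438 and 0.604 CPM in siNS and 0.215, 3.77 and 4.37 CPM in siNFKB2, so replicate 1 lay within the siNS range, and its call (adjusted p = 0.041) was lost under 8 of 18 alternative settings. CCL26 (log2 -1.41) and CX3CL1 (-1.04) fell.

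IL1A, an alarmin of the interleukin 1 family, rose from 3.42, 3.56 and 4.45 to 17.3, 35.1 and 34.4 CPM (log2 2.92 ± 0.27, adjusted p = 0.000253). CSF2, the growth factor GM-CSF, rose from 2, 3 and 3.35 to 6.92, 40.3 and 47 CPM, with replicate 1 far below replicates 2 and 3. IL7R, the interleukin 7 receptor, rose from 359, 187 and 205 to 767, 819 and 670.4 CPM (log2 1.59 ± 0.25), and IL6R by 0.93. IL1B (3.85) and IL23A (3.43) were among the other risers, named after their values were seen. The 2 that fell were IL13RA1 (-0.92) and IL11 (-0.87, named after its values were seen), and both held a word in the 3′ UTR, among 11 of the 35 members with one. The call of IL11 was lost under 7 of 18 alternative settings. Between the knockdowns 15 of the 35 were higher in siNFKB2 and 6 lower.

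Promoters of the genes that rose were searched for the binding motifs of AP-1 (TGANTCA) and NF-kB (GGGNNTTTCC) and for the E-box CACGTG on both strands, from 250 bases before to 50 after each gene's start, in 10956 promoters matched by symbol (RefSeq, GRCh38.p14). The AP-1 motif stood in 5.23% of all promoters, in 8.2% of those of genes called higher, in 12.2% at a log2 of 1 or more and in 20.8% at a log2 of 2 or more (16 of 77). Genes called lower held it in 4.45%. The NF-kB motif stood in 2.14% of all promoters, in 3.42% of genes called higher, in 7.79% at a log2 of 2 or more (6 of 77) and in 1.42% of genes called lower. The E-box stood in 9.75% of all promoters, in 11.8% of genes called higher but in 7.49% at a log2 of 1 or more and 6.49% at a log2 of 2 or more (5 of 77), and in 8.57% of genes called lower. None of these shares was adjusted for the base composition of the promoters. The E-box holds the letters CG and the AP-1 motif does not, so their shares need not be comparable. In the list of NF-kB subunits and inhibitors 4 of 8 matched promoters held the NF-kB motif and 0 held the E-box. A match is a run of letters, not a measured binding site. The patterns are strict, and a run that differs by 1 letter was neither counted nor put in capitals. The CXCL8 promoter below holds such a near match to the NF-kB motif. The 250 bases before the start are printed for 5 genes that rose, with each motif in capitals: the NF-kB motif in CCL20 and BIRC3, and AP-1 in CXCL8, IL1A and MMP10.
CCL20 promoter, chr2:227813592-227813841, plus strand: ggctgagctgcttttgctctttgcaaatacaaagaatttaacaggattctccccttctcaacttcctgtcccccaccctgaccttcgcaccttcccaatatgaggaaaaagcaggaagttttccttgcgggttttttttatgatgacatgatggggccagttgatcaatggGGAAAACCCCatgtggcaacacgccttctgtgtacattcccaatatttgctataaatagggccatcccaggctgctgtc
BIRC3 promoter, chr11:102317234-102317483, plus strand: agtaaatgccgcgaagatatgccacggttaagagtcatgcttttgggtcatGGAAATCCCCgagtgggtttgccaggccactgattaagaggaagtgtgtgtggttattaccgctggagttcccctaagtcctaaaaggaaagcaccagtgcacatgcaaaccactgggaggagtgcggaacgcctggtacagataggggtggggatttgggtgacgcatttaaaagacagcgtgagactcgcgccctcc
CXCL8 promoter, chr4:73740319-73740568, plus strand: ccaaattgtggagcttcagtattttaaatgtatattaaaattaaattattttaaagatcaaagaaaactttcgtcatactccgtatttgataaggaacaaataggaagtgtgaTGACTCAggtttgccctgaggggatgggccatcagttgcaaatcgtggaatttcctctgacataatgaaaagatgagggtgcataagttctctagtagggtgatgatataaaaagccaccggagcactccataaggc
IL1A promoter, chr2:112784494-112784743, minus strand: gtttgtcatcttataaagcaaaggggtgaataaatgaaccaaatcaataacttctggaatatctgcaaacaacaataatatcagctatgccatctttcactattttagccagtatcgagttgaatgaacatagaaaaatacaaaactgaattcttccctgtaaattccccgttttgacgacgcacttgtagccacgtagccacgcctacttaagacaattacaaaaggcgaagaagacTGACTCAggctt
MMP10 promoter, chr11:102780629-102780878, minus strand: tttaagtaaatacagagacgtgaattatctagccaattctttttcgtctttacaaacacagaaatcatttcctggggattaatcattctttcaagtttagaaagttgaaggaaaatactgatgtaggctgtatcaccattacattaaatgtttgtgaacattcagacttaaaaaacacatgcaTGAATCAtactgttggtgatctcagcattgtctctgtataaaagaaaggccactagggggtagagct
The motifs begin 79 bases before the start in CCL20, 199 in BIRC3, 137 in CXCL8, 12 in IL1A and 67 in MMP10.

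Early response and feedback genes of the MAPK pathway were the list with the second highest share of risers: 15 of 28 rose and 1 fell, with a median log2 of 0.65. DUSP5, a phosphatase that switches off nuclear ERK, was at 24.2, 32.6 and 27.2 CPM in siNS and 50.6, 109.8 and 119.9 CPM in siNFKB2 (log2 1.74 ± 0.27, adjusted p = 0.00162). SPRED3, an inhibitor of RAF activation, rose from 19.5, 21.8 and 20.7 to 46.3, 63 and 60 CPM, and the transcription factors KLF6 and MYC by log2 1.31 and 0.85. PHLDA1 rose by 1.04. DUSP10, a phosphatase of JNK and p38, fell (-0.85). The group was higher in siNFKB2 than in siRELB for 16 members and lower for 3 (19 and 5 with a replicate block). Without siNFKB2 replicate 2 the number of risers was 8. Among EGF ligands and receptors, ERRFI1, a feedback inhibitor of EGFR, and HBEGF rose by 1.30 and 1.01, while ERBB3 fell from 5.84, 4.56 and 3.73 to 1.66, 0.232 and 0.596 CPM, and the other 10 of 13 were not called.

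Secreted matrix proteases and their inhibitors changed in both directions. MMP3, or stromelysin 1 (chromosome 11, 102835801 to 102843803, minus strand), was at 226, 173 and 173 CPM in siNS and 1384, 851 and 632 CPM in siNFKB2 (log2 2.33 ± 0.28, adjusted p = 0.000439), here with replicate 1 the highest. MMP1, interstitial collagenase, rose from 0.999, 0.313 and 0.494 to 6.71, 11.7 and 8.47 CPM, MMP10 from 1.05, 0.688 and 0.988 to 4.13, 4.82 and 3.71 CPM and MMP9, a gelatinase, from 14.1, 47.6 and 45.7 to 68.6, 418 and 317 CPM. TIMP3, an inhibitor of such proteases, fell from 44.1, 46.5 and 40.5 to 17.6, 12.1 and 11 CPM (log2 -1.68 ± 0.17). ADAMTS15 (-2.35) and ADAMTS12 (-1.36), secreted proteases of matrix proteoglycans, also fell. Over the list, 8 of 25 rose and 7 fell, and 3 of the 7 held a 3′ UTR word, among 9 of the 25 with one. Without siNFKB2 replicate 2 the risers numbered 5.

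Of 56 collagen, elastic fibre and basement membrane genes, 15 fell and 4 rose, with a median log2 of -0.21. FN1, fibronectin, was at 1189, 1352 and 1233 CPM in siNS and 656, 557 and 537 CPM in siNFKB2 (log2 -1.11 ± 0.11, adjusted p = 0.000253). COL5A1, a fibril-nucleating collagen chain, fell from 107, 209.9 and 203 to 37.7, 41.7 and 38.2 CPM, and COL8A1 from 22.9, 27.7 and 21.5 to 10.6, 10.2 and 8.67 CPM. THBS1, thrombospondin 1, fell by 0.79 on the log2 scale. Risers named after their values were seen were the collagen lysyl hydroxylase PLOD2 (1.33), LAMA1 (0.94) and MFAP5 (0.51). Of the 15 that fell, 7 held a 3′ UTR word, among 15 of the 56 with one. The median over the 41 members without a word was -0.0865. Between the knockdowns 20 members were lower in siNFKB2 and 7 higher. Without siNFKB2 replicate 1 the risers numbered 8.

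Integrins and their adaptors changed in both directions, 8 of 22 up and 7 down. ITGB3, the beta subunit of the vitronectin receptor, fell from 6.99, 10.9 and 10 to 2.09, 1.62 and 1.06 CPM (log2 -2.53 ± 0.26), and ITGA6, a laminin receptor subunit, from 339, 222 and 253 to 128, 81.5 and 84.9 CPM (log2 -1.47 ± 0.20). ITGA4 (-1.45), ITGB8 (-1.58) and ITGA3 (-0.53) fell too, and 5 of the 7 that fell held a word, among 8 of the 22 with one. ITGA2, a collagen receptor subunit, was at 125, 84.2 and 105 CPM in siNS, 163, 261 and 219 CPM in siNFKB2 and 33.3, 13 and 13.5 CPM in siRELB, higher in the first knockdown (1.04) and lower in the second (-2.39). The call of ITGA2 in siNFKB2 (adjusted p = 0.0425 by edgeR) was lost under 4 of 18 alternative settings. The adaptor paxillin (PXN) rose by 0.58. The number of risers fell to 3 without siNS replicate 3 or siNFKB2 replicate 2, and to 5 without siNS replicate 2 or siNFKB2 replicate 3.

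Adhesion molecules fell more often than they rose, 8 against 2 of 28, and 7 of the 8 held a word, among 11 of the 28 with one. NECTIN1, a junctional adhesion molecule, fell from 46.1, 47.6 and 43.6 to 25.2, 17.3 and 16.1 CPM and MCAM from 167, 199 and 176 to 113, 62.6 and 66.2 CPM. NCAM1 (-0.64), CDH11 (-0.55) and CDH6 (-3.40, at most 1.25 CPM in any siNS library) were lower as well. ICAM1, the leukocyte ligand, rose from 23.7, 32.5 and 34 to 49, 135 and 86.7 CPM. CDH1 rose by 0.82, a call lost under 8 of 18 alternative settings. Guidance molecules had 10 members lower and 2 higher of 39. EPHA4, an ephrin receptor, rose from 3.15, 2.25 and 2.8 to 13.4, 26.2 and 26.7 CPM and SEMA6D by 2.15. NTN1 (netrin 1, log2 -1.22), the semaphorin receptor PLXND1 (from 60.7, 75.1 and 74.3 to 34.7, 37 and 33 CPM), EPHB2 (-0.92) and SEMA3B (-3.30) fell. Of those 10, 5 held a word, among 17 of the 39 guidance members with one. Without siNFKB2 replicate 2 the fallen numbered 4 adhesion and 6 guidance genes.

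In TGF-beta and BMP signalling 14 of 42 genes fell and 7 rose, with a median log2 of -0.11. ID1, a target of BMP signalling that blocks bHLH factors, was at 142, 189 and 221 CPM in siNS and 70.2, 42.7 and 48.6 CPM in siNFKB2 (log2 -1.77 ± 0.21, adjusted p = 0.000431). ID4 was at 17.3, 8.44 and 13.2 CPM in siNS and 3.11, 1.22 and 1.12 CPM in siNFKB2, and the ligand BMP4 at 32.1, 54.1 and 44.9 CPM in siNS and 21.4, 18.2 and 17.4 CPM in siNFKB2. TGFB2, another ligand, fell from 215, 164 and 179.8 to 95.3, 66.7 and 59.4 CPM. FST, follistatin, which binds activin, fell in both knockdowns, by log2 -1.58 and -1.34 against the shared siNS libraries. BMP2 was the largest rise, from 11.1, 11.1 and 12.1 to 20.4, 26.6 and 23.8 CPM. Of the 14, 6 held a word, among 16 of the 42 members with one. Without siNFKB2 replicate 2 the counts were 9 lower and 1 higher, and the risers numbered 2 without siNS replicate 3 or siNFKB2 replicate 3 and 3 without siNS replicate 2.

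Among Wnt genes, 9 of 35 fell and 3 rose. The receptors FZD1 (-0.88), FZD2 (-1.02) and FZD4 (-1.51), their transducers DVL2 (-0.90) and DVL3 (-0.46), and the ligand WNT9A (-1.63) fell, while the inhibitor DKK1 (1.49) rose from levels under 1 CPM. FZD6 (0.63) and FZD8 (0.86), named after their values were seen, rose too. The Wnt risers numbered 0 without siNS replicate 3 or siNFKB2 replicate 2, 1 without siNS replicate 2 and 5 without siNS replicate 1. Of the 9, 5 held a word, among 12 of the 35 Wnt members with one. Notch genes showed 4 lower and 3 higher of 20. NOTCH3 (-0.73), the fringe enzyme LFNG (-1.11), the gamma-secretase subunit NCSTN (-0.61) and the coactivator MAML3 (-0.65) fell, and ADAM19 (1.33) and PSEN2 (0.46, named after its values were seen) rose, the call of PSEN2 being lost under 11 of 18 alternative settings. The fallen Notch genes numbered 2 without siNS replicate 3 or siNFKB2 replicate 2. In the FGF, VEGF, PDGF and IGF families 7 of 28 fell and 3 rose, with a median log2 of 0.0874. IGFBP5, an IGF-binding protein, fell from 82, 98.9 and 93.6 to 36.3, 24.7 and 25.3 CPM and FGFR2 from 16, 19.6 and 18.4 to 7.84, 7.72 and 7.94 CPM. VEGFC fell by 1.06 on the log2 scale, whereas VEGFA rose (1.02, named after its values were seen), as did FGF1 (0.68) and the VEGF receptor FLT1 (1.77).

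Targets of YAP and of the actin-regulated factor SRF split. Of 30 genes 7 fell and 3 rose. SRF itself went from 74, 94.6 and 84.6 to 36.6, 38 and 43 CPM (log2 -1.11 ± 0.13), TPM1, tropomyosin 1, from 627, 689 and 709.6 to 362, 261 and 269 CPM, and ACTA2, smooth muscle actin, from 8.15, 10.6 and 10.7 to 4.08, 3.19 and 2.98 CPM. The classical YAP targets ANKRD1 (1.08) and CCN2 (0.51) rose, with the kinase LATS2 (0.72, named after its values were seen). Between the knockdowns 14 members were lower in siNFKB2 and 2 higher (18 and 5 with a replicate block), and 3 were higher in siRELB than in siNS. Of the 7 that fell, 5 held a word, among 12 of the 28 members searched with one.

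Cholesterol synthesis and uptake had the highest share of risers of all lists: 18 of 33 genes rose and 2 fell, with a median log2 of 0.52. HMGCS1, which makes HMG-CoA (chromosome 5, 43289395 to 43313512, minus strand), was at 563, 409 and 459 CPM in siNS and 1318, 1967 and 1756 CPM in siNFKB2 (log2 1.82 ± 0.16, adjusted p = 0.000253). SQLE, squalene epoxidase, rose from 216, 183 and 203 to 471, 696 and 551 CPM (log2 1.51 ± 0.15), MSMO1 from 170.2, 145 and 169 to 364, 585 and 466 CPM and DHCR7, the last enzyme of one branch, from 188, 221 and 208 to 353, 574 and 426 CPM. No siNFKB2 library of these 4 genes overlapped siNS. IDI1 and CYP51A1 rose by 0.75 and 1.07. The master regulator SREBF2 rose less (0.76, named after its values were seen). PMVK (-0.63) and NPC2 (-0.54, named after its values were seen) fell. None of the 33 was called in siRELB, where only 2.02% of all genes were and the median of the list was 0.15. Between the knockdowns 14 were higher and 3 lower in siNFKB2.

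In fatty acid synthesis 13 of 35 genes were higher and 1 lower, with a median of 0.14. LPIN1, a phosphatidate phosphatase, was at 78, 64.7 and 66.8 CPM in siNS and 163, 215 and 221 CPM in siNFKB2 (log2 1.51 ± 0.14, adjusted p = 0.000253). G0S2 was at 3.31, 8.07 and 9.66 CPM in siNS and 29.6, 88.9 and 84 CPM in siNFKB2, and FASN, fatty acid synthase, at 292, 326 and 385 CPM in siNS and 440.3, 608 and 490.5 CPM in siNFKB2. ME1 (0.84), which supplies NADPH, ACSL4 (1.00) and AGPAT4 (0.89) rose, and the desaturase FADS1 fell (-1.24). Without siNS replicate 3 the risers numbered 5, and without siNFKB2 replicate 2 they numbered 6.

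Of 37 oxidation and peroxisome genes 9 fell and 4 rose. Besides HADHA, the dehydrogenases ACADVL (-0.66), ACAD9 (-0.95) and ACADL (-1.36), the isomerase ECI1 (-1.21) and the carnitine transferase CPT2 (-0.89) fell. Of the 9 that fell 4 held a word, among 12 of the 37 members with one. CPT1A rose from 0.526, 0.688 and 0.549 to 1.13, 1.57 and 1.72 CPM, and PPARA rose by 0.87 (named after its values were seen). The 4 rises of the list became 2 without siNS replicate 2, 1 without siNFKB2 replicate 2 and 0 without siNS replicate 3. Of 42 cycle, pyruvate and ketone genes 9 fell and 3 rose. SUCLG1, a subunit of succinyl-CoA ligase, was at 121, 130.4 and 130.5 CPM in siNS and 54.1, 16.4 and 17.9 CPM in siNFKB2 (log2 -2.11 ± 0.38), with replicate 1 the nearest to siNS. IDH2 fell from 14.2, 15.3 and 19.2 to 5.64, 3.19 and 2.98 CPM, GOT2 from 421, 388 and 389.7 to 228, 187 and 183 CPM, FH by 0.76 and PC, pyruvate carboxylase, by 0.88 on the log2 scale. PDP2 (0.89) rose, with PDK1 (0.67) and IDH3G (0.52), named after their values were seen. SUCLG1 alone of the 9 held a word, among 9 of the 42 members with one.

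In nucleotide, folate and serine synthesis 10 of 34 genes were lower, 1 higher and 23 not called, and a median log2 of -0.18. PAICS, a purine synthesis enzyme, was at 659.8, 598 and 632 CPM in siNS and 333, 272 and 272 CPM in siNFKB2 (log2 -1.11 ± 0.11, adjusted p = 0.000256). IMPDH2, which commits to guanine nucleotides, fell by 0.80 on the log2 scale and MTHFD1 by 0.64. A word stood in the UTR of 1 of the 10, and of 4 of all 34 members. These genes also serve dividing cells, and beside them 110 of the 148 tested genes of the cell cycle and DNA replication were lower; their part in the result was not tested. The fallen numbered 4 without siNFKB2 replicate 2 or 3 and 5 without siNS replicate 3. Over all genes tested in those 3 fits, 1140 of 15214, 1360 of 15147 and 1298 of 15161 were called lower. Glucose uptake and glycolysis had 7 of 35 members higher and 5 lower. ALDOC, a brain-type aldolase, rose from 4.89, 4.88 and 4.17 to 14.8, 23.8 and 16.3 CPM, the glucose transporter SLC2A3 by 0.68, ENO2 by 0.49 and PKM from 4296, 4262 and 4169.9 to 5496, 6297 and 5191 CPM. TXNIP and its relative ARRDC4, 2 arrestins that lower glucose uptake, moved apart, by -3.14 and 0.93. With TXNIP, MLX (-0.71), the pentose phosphate enzyme PGD (-0.43) and the phosphofructokinase PFKP (-0.45) fell (the last 2 named after their values were seen), and the falls of the list numbered 2 without siNS replicate 3 or siNFKB2 replicate 3.

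**Figure D3:**
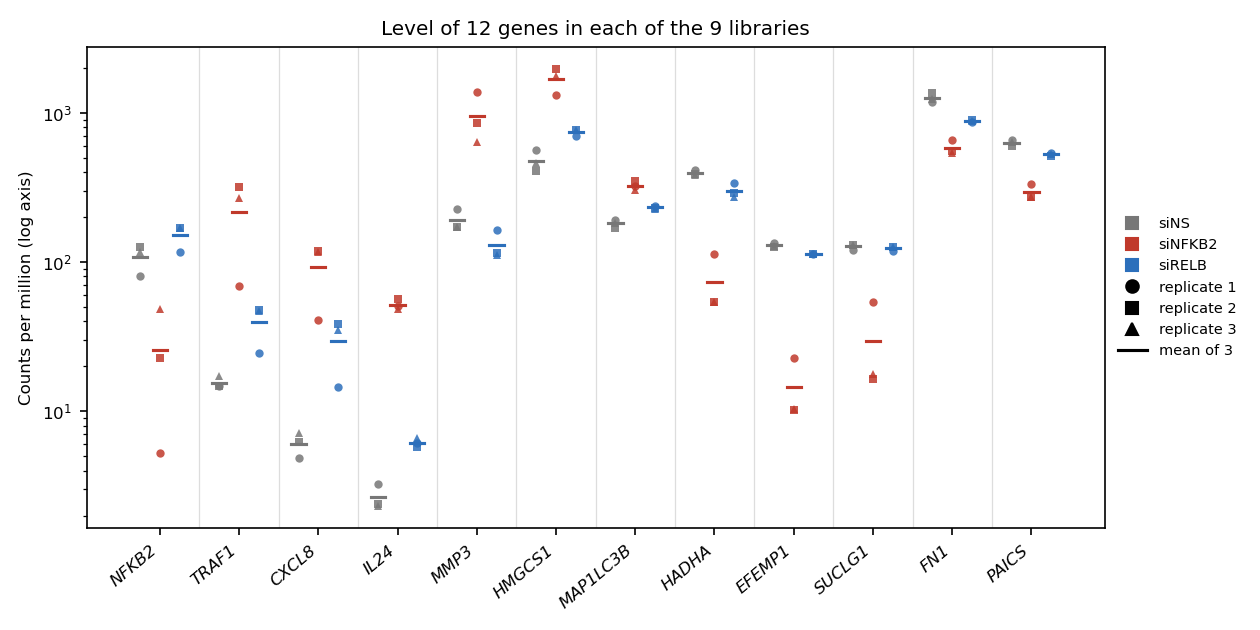
Points are CPM of 12 genes on a log axis in the 9 libraries, coloured by group, with the replicate number as the shape and the group mean as a bar. TRAF1, CXCL8, IL24, MMP3, HMGCS1 and MAP1LC3B lie higher in all 3 siNFKB2 libraries than in siNS, and HADHA, EFEMP1, SUCLG1, FN1 and PAICS lower.

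Autophagy genes rose more often than they fell: 15 of 38 were higher and 1 lower, with a median log2 of 0.38 and medians of 0.351, 0.448 and 0.381 in replicates 1 to 3. MAP1LC3B, whose lipidated protein coats autophagosomes (chromosome 16, 87383995 to 87404779, plus strand), was at 191, 169.5 and 184 CPM in siNS and 324, 348 and 301 CPM in siNFKB2 (log2 0.84 ± 0.10, adjusted p = 0.000452). GABARAPL1, of the same protein family, rose from 95.7, 100.5 and 108 to 181, 243 and 209 CPM and the cargo receptor OPTN from 147, 149 and 162 to 242, 272 and 244 CPM. ATG4A, the protease that trims LC3-like proteins, UVRAG and WIPI1 rose by 1.10, 0.76 and 1.04, and ATG10 fell (-0.75). In siRELB 1 member was called, and 19 were higher and 2 lower in siNFKB2 than in siRELB. Lysosome genes were mixed, with 9 of 59 up and 9 down, counts near the background. CTSS, cathepsin S, rose from 0.841, 1 and 1.32 to 3.54, 9.98 and 8.67 CPM and the proton pump subunit ATP6V1A by 1.12. SMPD1, acid sphingomyelinase, fell from 53.4, 73.9 and 65.6 to 32.9, 33.7 and 29.1 CPM and the GM2 activator GM2A by 0.77 on the log2 scale. The lysosomal risers numbered 4 without siNS replicate 3 or siNFKB2 replicate 2.

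Stress pathways moved unevenly. Of 41 NRF2 and glutathione genes 9 rose and 4 fell. HMOX1, heme oxygenase 1, was at 39.2, 39.5 and 39.7 CPM in siNS and 137, 123 and 116 CPM in siNFKB2 (log2 1.67 ± 0.15, adjusted p = 0.000248). SOD2, the mitochondrial superoxide dismutase and a known NF-kB target, rose from 229.8, 152 and 175 to 507, 509 and 401 CPM, TXNRD1 by 1.19, OSGIN1 by 0.75 and the cystine transporter SLC7A11 by 1.96. With ALDH3B1 and AKR1A1, the peroxidase GPX8 (-0.68) and AKR1B1 (-0.46) fell (the last 2 named after their values were seen), and the call of AKR1B1 was lost under 9 of 18 alternative settings. The risers numbered 5 without siNS replicate 3, and the fallen 2 without siNS replicate 3, siNFKB2 replicate 2 or siNFKB2 replicate 3.

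Endoplasmic reticulum folding genes fell in 7 of 37 cases and rose in 3, with a median of -0.23. The disulfide isomerases PDIA4 (-0.67) and PDIA6 (-0.51) and the membrane-bound factors CREB3L1 (-0.91) and CREB3L2 (-1.06) fell, while ERN1, the sensor IRE1-alpha, rose from 12.3, 9.63 and 10 to 23, 29.2 and 30 CPM, EDEM1 by 1.18 and HERPUD1 by 0.50 (named after its values were seen). The fallen numbered 12 without siNS replicate 1 and 3 without siNFKB2 replicate 2. ATF4 targets and amino acid transporters had 5 up and 2 down of 36, near the background. PPP1R15A, which restores translation after stress, rose from 66.3, 82.7 and 75.9 to 130.4, 146 and 153 CPM, TRIB3 by 0.71, SLC7A6 by 0.64, VLDLR by 0.78 and DDIT4, an inhibitor of mTORC1, by 1.40 with overlapping libraries. SLC1A4 (-0.98) and NUPR1 (-1.06) fell. Heat shock proteins had 4 up and 1 down of 39, with the small chaperone HSPB8 at 141, 117 and 133 CPM in siNS and 230.1, 264 and 214 CPM in siNFKB2. The other risers, DNAJA2 (0.37), DNAJB6 (0.39) and HSPA14 (0.35), rose by smaller amounts, and CCT8 (-0.39) fell. The calls of DNAJB6 and HSPA14 were each lost under 8 of 18 alternative settings, that of DNAJA2 under 6 and that of CCT8 under 4. When siNS replicate 2 or 3 or siNFKB2 replicate 2 or 3 was left out 1 heat shock member rose, and without siRELB replicate 2 or 3 there were 2.

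Cell death genes changed both ways, 8 up and 8 down of 39. Of the 8 that fell 5 held a word and of the 8 that rose 1, among 16 of the 39 members with one. Beside BCL2A1, CASP4, the inflammatory caspase, rose from 89.3, 99.8 and 92.9 to 170.2, 225 and 198 CPM. BMF, a pro-apoptotic BH3 protein, fell from 3.15, 3.25 and 2.36 to 1.07, 0.58 and 0.529 CPM and the pore former BAK1 by 0.65 on the log2 scale. The fallen numbered 3 without siNS replicate 3 or siNFKB2 replicate 3 and 4 without siNFKB2 replicate 2, where the risers numbered 5.

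Innate sensing genes rose in 8 of 23 cases and fell in 2. DDX58, the RNA sensor RIG-I, was at 37.8, 37.3 and 36.4 CPM in siNS and 55.7, 64.8 and 59.7 CPM in siNFKB2 (log2 0.69 ± 0.11). IRAK2, a kinase of interleukin 1 and Toll-like receptors, rose from 5.05, 3.19 and 3.84 to 8.37, 21.7 and 16.1 CPM, IFI16 by 0.48, TLR6 by 0.46 and IKBKE by 0.54. NOD1 (-0.72) and IRAK1 (-0.65, named after its values were seen) fell, and neither held a word, which 7 of the 23 members did. Without siNS replicate 3 the risers numbered 4, and without siNFKB2 replicate 2 or 3 they numbered 5. Interferon-stimulated genes did not move as a block: 4 of 36 rose and 5 fell, with a median of -0.10. GBP3 (0.99) and ISG20 (1.12) rose with IFNAR1 (0.54) and SP100 (0.35), while SOCS3, a brake on cytokine signalling, went from 11.7, 13.2 and 15.8 to 5.53, 5.74 and 5.43 CPM, and GBP2 (-1.98), DDX60 (-1.03), IFI44 (-0.90) and IFIT1 (-1.71) fell. IFNAR1, SP100 and IFIT1 were named after their values were seen, and the call of SP100 was lost under 11 of 18 alternative settings. The fallen numbered 8 without siNFKB2 replicate 1, and the risers 2 without siNS replicate 3 and 1 without siNFKB2 replicate 2.

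CD274, the checkpoint ligand PD-L1, was at 15.6, 16.8 and 15 CPM in siNS and 30, 62.5 and 71.2 CPM in siNFKB2 (log2 1.79 ± 0.28, adjusted p = 0.00152). CD276 (0.69) and the NKG2D ligand ULBP3 (0.36) also rose among the 13 antigen presentation genes tested, and none fell; at an adjusted p of 0.0482 ULBP3 was near the threshold, and it was lost under 12 of 18 alternative settings. Acute-phase and prostaglandin genes had 7 higher and 2 lower of 28. SERPINB2, the plasminogen activator inhibitor PAI-2, was at 0.0526, 0.25 and 0.0549 CPM in siNS and at 3.7, 14.7 and 9 CPM in siNFKB2 (log2 6.25 ± 0.66). PTX3, a soluble pattern recognition protein, rose from 14.5, 15.1 and 14.3 to 31.5, 48.4 and 39.4 CPM and SAA2, serum amyloid A2, from 0.789, 1.13 and 1.04 to 3.27, 10.2 and 8.01 CPM. SERPINB8 (0.99), PTGS1 (1.30) and STC1 (1.32) rose, and the prostacyclin synthase PTGIS (-1.10) and PTGES2 (-0.57, named after its values were seen) fell.

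**Figure D4:**
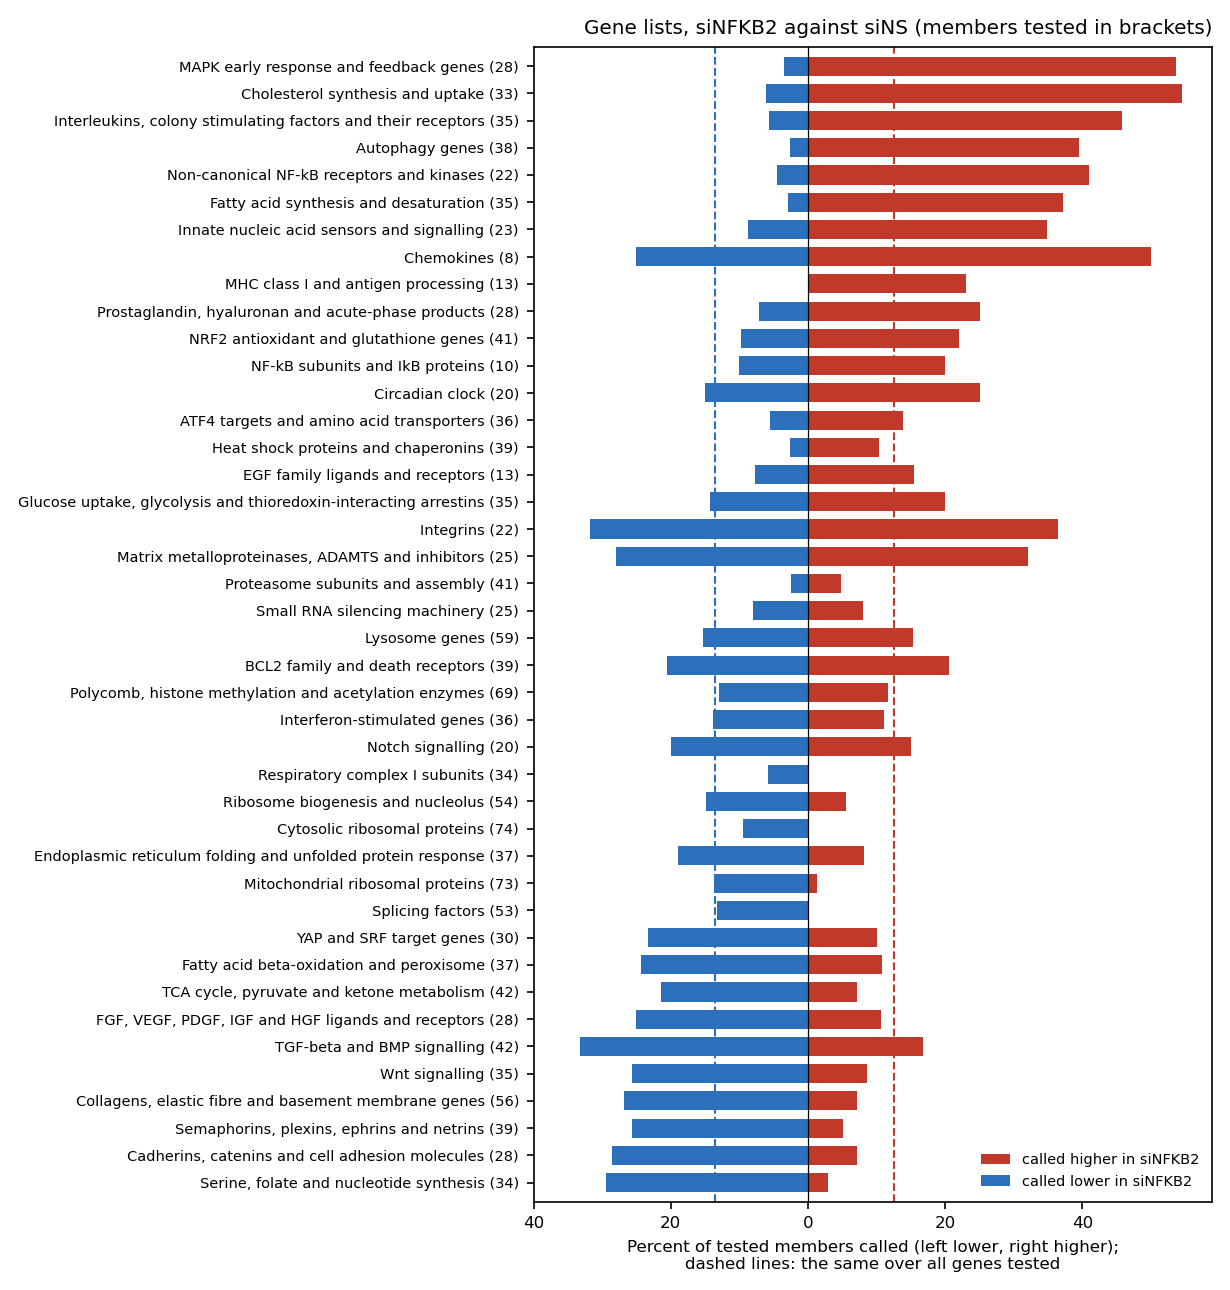
Bars give, for each of 42 gene lists, the percent of tested members called higher (right) and lower (left) in siNFKB2 against siNS, with the number tested in brackets, and dashed lines give the shares over all genes (12.6% higher, 13.5% lower). Cholesterol synthesis, MAPK early response, interleukins, non-canonical NF-kB and autophagy genes exceed the right line by the most among lists of over 20 members.

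Cytosolic ribosomal proteins had 7 of 74 lower and none higher; RPS4X went from 1297, 1812 and 1427 to 881, 754 and 788 CPM (log2 -0.90 ± 0.14), RPS23 fell by 0.59 and RPL26 by 1.30 on the log2 scale. The many processed pseudogenes of this family make its counts uncertain. Mitochondrial ribosomal proteins had 10 of 73 lower, such as MRPS7 (-0.78) and MRPS6 (-0.83), and 1 higher, MRPL50, from 44, 34.1 and 34 to 94.6, 95 and 86.6 CPM. Complex I had 2 of 34 lower, NDUFV2 (-0.48) and NDUFV3 (-0.47, its call lost under 9 of 18 alternative settings). Of 54 ribosome assembly factors 8 fell, with NOP14 (-0.91), NOLC1 (-0.94) and the nucleolin gene NCL (-0.60) among them, and 3 rose: DDX47 (0.51), WDR43 (0.47) and POLR1B (0.43, named after its values were seen). Splicing factors had 7 of 53 lower and none higher, led by HNRNPF at 591, 477 and 541 CPM in siNS and 347, 231 and 218 CPM in siNFKB2. Proteasome subunits had PSMD13 lower (-0.67) and PSMD2 (0.44) and PSMD7 (0.41) higher of 41. All these shares are near or below the background. Counts of fallen members moved with single libraries: without siNS replicate 1 23 cytosolic and 28 mitochondrial ribosomal genes and 12 splicing factors were lower. Without siNS replicate 3 they were 4, 5 and 3, without siNFKB2 replicate 3 they were 4, 6 and 2, and without siNFKB2 replicate 2 the cytosolic ribosomal and splicing lists had 2 each. Ribosome assembly had 5, 2, 2 and 3 without siNS replicate 2, siNS replicate 3, siNFKB2 replicate 2 and siNFKB2 replicate 3.

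The small RNA machinery that siRNAs use had 2 of 25 genes lower and 2 higher. MOV10, a helicase of silencing complexes, went from 89.2, 109 and 93.7 to 41.7, 35.8 and 39.3 CPM (log2 -1.32 ± 0.13) and held CAGCCAA in its 3′ UTR, and PRKRA fell by 0.61 on the log2 scale. AGO4 (0.90) and the uridylyltransferase TUT7 (0.77) rose. Chromatin enzymes had 8 of 69 higher and 9 lower, close to the background. The Polycomb genes CBX7 (-1.36), CBX2 (-1.07) and EZH2 (-0.89) and the deacetylase HDAC6 (-0.96) fell, HDAC9 rose from 76.5, 44.6 and 51.6 to 144, 135 and 128 CPM and the demethylase KDM5B by 0.75. Without siNFKB2 replicate 2 the risers numbered 5. In the circadian clock 5 of 20 rose, among them ARNTL (0.74), NR1D1 (0.81), RORA (1.02), BHLHE40 (0.60) and ARNTL2 (0.44), and 3 fell, PER3 from 40.2, 36.4 and 36.7 to 21.5, 9.57 and 14.2 CPM, TEF (-0.54) and DBP (-1.13); ARNTL2, whose call was lost under 9 of 18 alternative settings, and DBP were named after their values were seen. Without siNS replicate 3 or siNFKB2 replicate 2 the risers of the clock numbered 3. Over gene classes, 13.3% of 1312 lncRNAs tested were higher and 5.95% lower, beside 12.8% and 14.9% of 12601 protein-coding genes.

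The 10 genes called with the highest mean CPM, an order of reads that is not corrected for gene length, were PKM, DHRS2, ANXA2, CFL1, TUBA1B, RPS4X, NCL, CCT8, RPS23 and PSMD2, of which PKM and PSMD2 rose and the other 8 fell. DHRS2, a short-chain dehydrogenase, went from 1982, 2586 and 2314 to 1541, 1219 and 1068 CPM, ANXA2, a membrane-binding annexin, from 1934, 2476 and 2099 to 1626, 1597 and 1497 CPM, and CFL1, the actin-severing cofilin, from 1487, 1654 and 1557 to 1291, 1013 and 837 CPM. TUBA1B, an alpha tubulin with near-identical paralogs, fell by 0.73 on the log2 scale. NCL was the exception to separation: its siNFKB2 replicate 1 lay at the level of the lowest siNS library.

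Set directly against siRELB, siNFKB2 differed at 3934 genes (26.6%), 1813 higher (12.2%) and 2121 lower (14.3%), whereas siRELB differed from siNS at 299 genes (2.02%), 179 higher (1.21%) and 120 lower (0.81%). With the replicate number as a block, 6054 genes (40.9%) differed between the knockdowns, 2957 higher and 3097 lower, including all 3934. Both knockdowns were compared with the same siNS libraries. Among genes called both against siNS and between the knockdowns, the largest excess over siRELB was in BCL2A1, where the log2 difference was 4.64 (adjusted p = 0.000504 against siNS and 0.00064 against siRELB), followed by G0S2 (4.39) and CSF2 (3.89). MMP9 was at 68.6, 418 and 317 CPM in siNFKB2 and 11.8, 38 and 30.7 CPM in siRELB. At the other end stood NPPB, the natriuretic peptide BNP, at 2.26, 5.06 and 2.25 CPM in siNS, 0.322, 0.928 and 0.993 CPM in siNFKB2 and 12.4, 29.2 and 30.9 CPM in siRELB. TNNT2, cardiac troponin T, was at 6.15, 11.6 and 8.4, 3.06, 1.91 and 2.18 and 17.9, 22.7 and 23.9 CPM in the same order of groups, and PDLIM1, an actin-associated LIM protein, at 13.7, 19.6 and 16.2, 5.96, 4.29 and 5.43 and 34.1, 54.2 and 52.1 CPM. These 3 genes were lower than siNS after NFKB2 depletion and higher than siNS after RELB depletion, each called both times (adjusted p in siRELB of 0.0122, 0.0292 and 0.00919). ITGA2 did the reverse. The siNFKB2 calls of ITGA2 and NPPB were lost under 4 and 3 of 18 alternative settings. The uncharacterised LOC105379057 fell by 1.73 on the log2 scale in siNFKB2 and had 0.85 in siRELB.

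**Figure D5:**
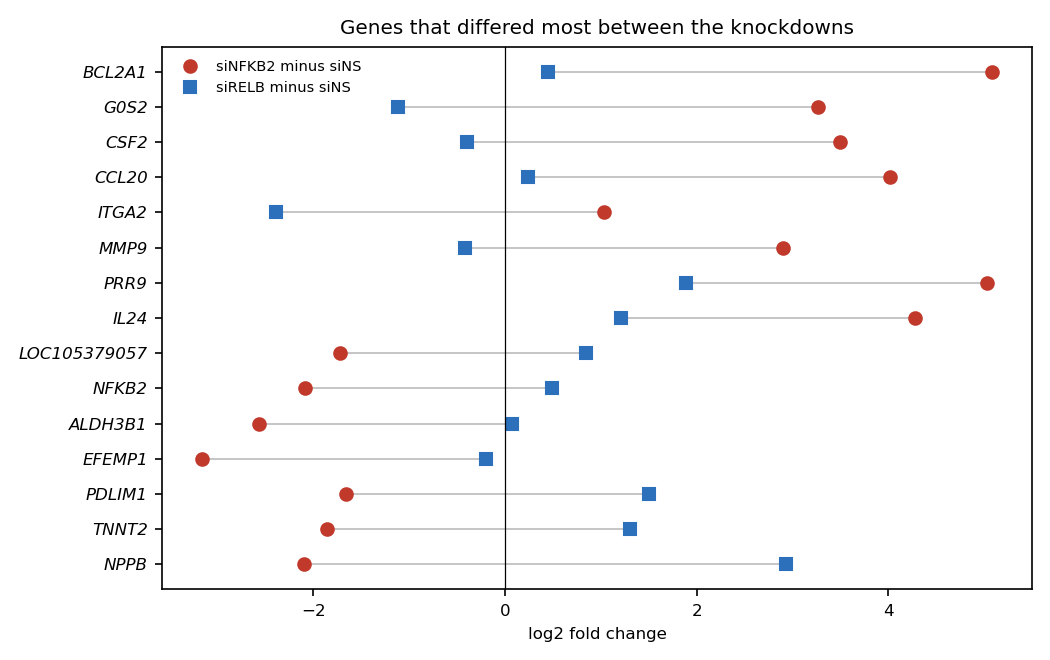
Circles give log2 fold changes of siNFKB2 and squares those of siRELB, both against the shared siNS libraries, for the 8 genes that lay farthest above and 7 of the 8 farthest below siRELB in siNFKB2. ITGA2 lies on opposite sides of 0 in the 2 knockdowns, as do NPPB, TNNT2 and PDLIM1 in the reverse direction, each called in both in the main fit.

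Markers of the cells were checked. Of 13 osteoblast and mesenchymal markers 9 passed the filter, and their summed level was 4564 to 5949 CPM in siNS and 4247 to 4561 CPM in siNFKB2. RUNX2, the osteoblast master factor, was at 13.9, 10.7 and 10.9 CPM in siNS and 5.74, 4 and 4.04 CPM in siNFKB2, COL1A1, a chain of type I collagen, at 649, 1074 and 905 CPM in siNS and 518, 569.8 and 569.5 CPM in siNFKB2, and ALPL, alkaline phosphatase, at 3.73, 6.75 and 4.72 CPM in siNS and 8.86, 26.7 and 26.2 CPM in siNFKB2. Of the 9, 4 were called lower and 3 higher. These are markers of the bone lineage itself, and the lower ones numbered 2 without siNS replicate 3, siNFKB2 replicate 2 or siNFKB2 replicate 3. Markers of other lineages were scarce: summed levels were 9.99 to 17.4 CPM in siNS and 9.66 to 13 CPM in siNFKB2 for 4 of 10 epithelial, 25.8 to 27.2 CPM in siNS and 19.7 to 29.7 CPM in siNFKB2 for 4 of 11 blood and 9.44 to 13 CPM in siNS and 5.34 to 8.16 CPM in siNFKB2 for 5 of 7 endothelial markers. Called among them were CDH1, higher, and CLDN4, HBB, CD3D and ERG, lower. The calls of CDH1, CD3D, HBB and CLDN4 were lost under 8, 7, 6 and 5 of 18 alternative settings, and that of ERG under 0.

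Exons of several genes named here overlap those of other genes, in which case reads may be shared and, without strand information in the sources, antisense reads cannot be told apart. The overlapped share of exonic length (GENCODE 29, from 10%) was CYP51A1 79.4%, ITGB3 51.6%, SLC7A6 44.4%, DDIT4 41.2%, TUBA1B 36.6%, DDX47 36.5%, PSMD7 30.7%, NDUFV2 28.4%, TGFB2 26.6%, PDIA6 25.2%, WIPI1 24.3%, ICAM1 22%, SERPINB2 19.9%, FZD4 18.9%, MMP9 18.4%, MLX 18.1%, CBX7 17.9%, ACTA2 17.3%, NOP14 17.1%, TPM1 16.1%, HMGCS1 15%, IDI1 14.8%, RPL26 14.3%, OSGIN1 13.9%, CFL1 12.9%, PXN 12.3%, MAP3K14 12.3%, SAA2 12%, CPT2 11%, NOD1 10.9%, PER3 10.7%, PC 10.5%, ACAD9 10.5%, LAMA1 10.3%, IDH3G 10.2%, DBP 10.1%, ALDOC 10.1%.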

How the data were processed

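RNA was measured in 9 libraries of U2OS cells, 3 each for siNS, siNFKB2 and siRELB. Oligo-dT libraries were sequenced on an Illumina HiSeq instrument, per the labels' protocols. The authors deposited 1 table per library of raw read counts per gene symbol, with 44608 entries. The submitters' processing notes name Trimmomatic 0.38, STAR 2.7.1a, Subread 1.6.4 and GRCh38.p13; the annotation and strand setting are not given in those sources. The 5005 entries with a suffix were kept as separate entries.

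The deposited counts were tested with edgeR 4.0.16 (R 4.3.3): filterByExpr kept 14815 entries, TMM scaled the libraries, a group-means model took all 9 libraries together, and the quasi-likelihood F test was adjusted by the Benjamini-Hochberg method. The common biological coefficient of variation was 0.184. Total counts per library were 15011789 to 19279572. Standard errors were derived from the fold change and its F statistic. Single-library log2 values used a pseudocount of 0.5 CPM. The script was tested on simulated counts. Same-numbered siNFKB2 and siRELB libraries deviated from their group means together (correlations 0.535, 0.171 and 0.45), so the numbers were taken to pair those libraries. This comes from the data, not the labels, and unlike-numbered libraries of these groups correlated at -0.524 to 0.258. Alternatives were the 6 libraries alone, a replicate block, DESeq2 1.42.0, RLE and upper quartile scaling, no filter, a stricter filter, suffixed entries summed, and each library left out.

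Named genes are NFKB2 and RELB, the 15 largest rises and falls (called, mean of at least 5 CPM, groups not overlapping, not on the recombination or cell cycle lists), up to 6 called members per list by adjusted p plus its largest rise and fall, 8 genes each way between the knockdowns, and the 10 genes called with the highest CPM. The subject, the gene lists and the tests were chosen with earlier results of these data known. Some genes and 1 gene list that the rule names are not reported here.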

Additional observations from a re-analysis of the deposited data

How the results depend on the processing

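Against siNS, 3869 genes were called. With a replicate block 5944 were (2945 higher, 2999 lower). With only the 6 libraries compared 2670 were (1262 higher, 1408 lower). Leaving out 1 library gave 2220 to 4895 genes, with 1054 to 2410 higher and 1140 to 2485 lower. Without the 3 libraries numbered 1, an alternative chosen after seeing the data, it was 6711 (3236 and 3475). Between siNFKB2 and siRELB 3934 were called, 6054 with the replicate block (2957 higher), 2188 to 4917 with 1 library left out (979 to 2364 higher, 1162 to 2553 lower), and 6600 (3252 and 3348) without the libraries numbered 1. The cause was not tested. The NFKB2 fold change was -2.09 (adjusted p = 0.0502 by edgeR) with the 6 libraries alone, and -2.93 to -1.60 with 1 library left out. Same-numbered siNS and siNFKB2 libraries deviated from their group means with correlations of 0.585, 0.0545 and 0.0914 for replicates 1, 2 and 3, so the numbers were not taken to pair those samples. The unlike-numbered siNS replicate 2 and siNFKB2 replicate 3 correlated at 0.569. For siNFKB2 and siRELB the numbers were taken to pair libraries, and the block ended no call between these knockdowns. It was a single factor over all 9 libraries, so it also grouped the siNS libraries by number. Counts between the knockdowns are without the block unless it is named. Of 324 named genes called, 244 (without siNFKB2 replicate 2) to 314 (without siRELB replicate 1) remained called with 1 library left out, and no fold change of a named gene called changed sign under the 18 alternatives. Losses of a call are printed beside some genes only, so a gene without such a remark may also have lost its call. Other scalings and filters moved the median of all genes by at most 0.0268 on the log2 scale. At these depths, folds of genes near or under 1 CPM rest on few reads. Of 34 list counts of 1 to 3 members, 29 moved by over 1.5 times when 1 library was left out.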
